A study of Mus musculus with 10 samples.

Results

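Cytokine and chemokine receptors sit on the cell surface and set which signals a macrophage can answer. Most, but not all, interleukin, colony-stimulating factor and interferon receptors signal through Janus kinases and STAT factors or through adaptors shared with Toll-like receptors. Il17ra is not among them. Members of the TNF receptor superfamily recruit TRAF proteins or death domain adaptors. Chemokine receptors couple to G proteins and guide migration, and TGF-beta superfamily receptors are kinases that phosphorylate Smad factors. In macrophages, interferon, TNF and colony-stimulating factor receptors are known for their part in activation and survival, and lipopolysaccharide (LPS), a bacterial product sensed by Toll-like receptors, is known to alter the receptor set of these cells. The receptor genes described here were taken by symbol: every array feature with 1 gene symbol that names an interleukin receptor chain, a TNF receptor superfamily member, a chemokine receptor of the Ccr, Cxcr or Cx3cr families, a colony-stimulating factor receptor, an interferon receptor, or a receptor symbol starting with Tgfbr, Acvr or Bmpr. Cd40 was left out. This gave 34 genes of the 8905 genes and unnamed features tested, each measured by 1 feature: 11 interleukin receptors, 8 members of the TNF receptor superfamily, 5 TGF-beta superfamily receptors, 4 interferon receptors, 4 chemokine receptors and 2 colony-stimulating factor receptors.

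The study compared tumour-associated macrophages (TAM) with adherent peritoneal exudate cells (PEC) of C57/6N black mice aged 8 weeks, on spotted cDNA arrays that hold the total RNA of 1 condition in each of 2 channels. TAM were taken 3 weeks after a tumour had been implanted and were kept as adherent cells, with 100 ng/mL LPS for 4 hours or untreated. PEC were kept in the same ways; where PEC shared an array with TAM, the labels place both harvests after implantation, while the labels of the arrays with PEC alone name no tumour. Untreated TAM were set against untreated PEC on 4 arrays (TAM-3, TAM-8, TAM-b and the exchanged TAM-2R), TAM with LPS against untreated TAM on 2 (TAM-trial and TAM-16), PEC with LPS against untreated PEC on 2 (PEC1 and PEC2), and TAM with LPS against PEC with LPS on 2 (TAM1 and TAM7). Each value is a log2 ratio of the first condition over the second, so it holds a difference and no level, and the labelled cell type could not be checked by the level of its markers. The sources used here do not give the tumour's kind, any pooling of animals or the purity of the adherent cells. In such bulk RNA, fewer cells of a type and less RNA per cell cannot be told apart.

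The dyes are not named, so the direction of every ratio is only likely. It was set by 11 of 11 measured genes of an LPS response list, which lay above 0 on both PEC1 (median 2.97) and PEC2 (median 4.5) when channel 2 was read over channel 1. TAM-2R and TAM1 had exchanged channels and were turned. After the turn the median of the same list was -2.2 on TAM1, beside -2.0 on TAM7. Left as deposited, TAM1 would correlate with TAM7 at -0.293. TAM-2R, once turned, correlated with the other arrays of its comparison at only 0.036 to 0.101, so its turn has less to check it by. The arrays of 1 comparison correlated weakly across all genes and features, at r from 0.036 to 0.329 in untreated TAM over PEC, and at 0.293 for TAM1 with TAM7, 0.269 for PEC1 with PEC2 and 0.096 for TAM-trial with TAM-16. Arrays of different comparisons but 1 print, v9p2, correlated more strongly, at 0.568 for TAM-8 with TAM7, 0.52 for TAM-8 with TAM-trial and 0.433 for TAM7 with TAM-trial. The labels name no separate animals or cultures for them, so the spread behind the p-values may be technical. The 2 arrays of each LPS response had 1 channel order, so their means hold any gene-specific dye effect, whereas TAM1 and TAM7 had opposite orders. When feature numbers were cut into consecutive runs of 96, the position within a run, here called feature place, accounted for 4.39% (TAM1) to 49.1% (TAM-b) of the variance. The 2 arrays of each such pair came from different prints, so their single values are also the values within a print. With so few arrays each mean is imprecise.

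None of the 34 receptor genes passed an adjusted p of 0.05 in any comparison (limma, Benjamini-Hochberg over all 8905 genes and features), so every direction below is a description of the arrays. Of all genes and features, 0.46% passed in untreated TAM over PEC, 0% in the LPS response of TAM, 0.0112% in the LPS response of PEC, and 0.0674% in TAM with LPS over PEC with LPS. An unadjusted p under 0.05 was reached by 7 receptor genes in untreated TAM over PEC, where 14.3% of all genes and features reached it. The LPS response of TAM had 1 such receptor gene, against 5.58% of all, and the LPS response of PEC had 7, against 8.14%. TAM with LPS over PEC with LPS had 7, against 8.99%. The median of the receptor genes, beside that of all genes and features, was 0.03 against -0.02 in untreated TAM over PEC, 0.05 against -0.13 in the LPS response of TAM, 0.23 against -0.04 in the LPS response of PEC, and -0.04 against 0.08 in TAM with LPS over PEC with LPS. Centring each array moved the median of all genes and features by more than 0.1 in the LPS response of TAM alone, to -0.02, and put 20 receptor genes above 0 there, against 18 before.

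Arrays were also compared by sign. In untreated TAM over PEC, 4 receptor genes were above 0 on all 4 arrays, where 8.77% of all genes and features were, and 5 were below 0 on all 4, where 10.8% were. In the LPS response of TAM, 12 were above 0 on both arrays (22.4% of all) and 7 below (33.7%). In the LPS response of PEC, 16, or 47.1%, were above 0 on both arrays (31.4% of all) and 9 below (32.5%). In TAM with LPS over PEC with LPS, 11 were above 0 on both arrays (32.9% of all) and 10 below (28.2%). The shares of receptor genes were closest to those of all genes and features in TAM with LPS over PEC with LPS, and farthest from them for genes above 0 in the LPS response of PEC.

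**Figure D1:**
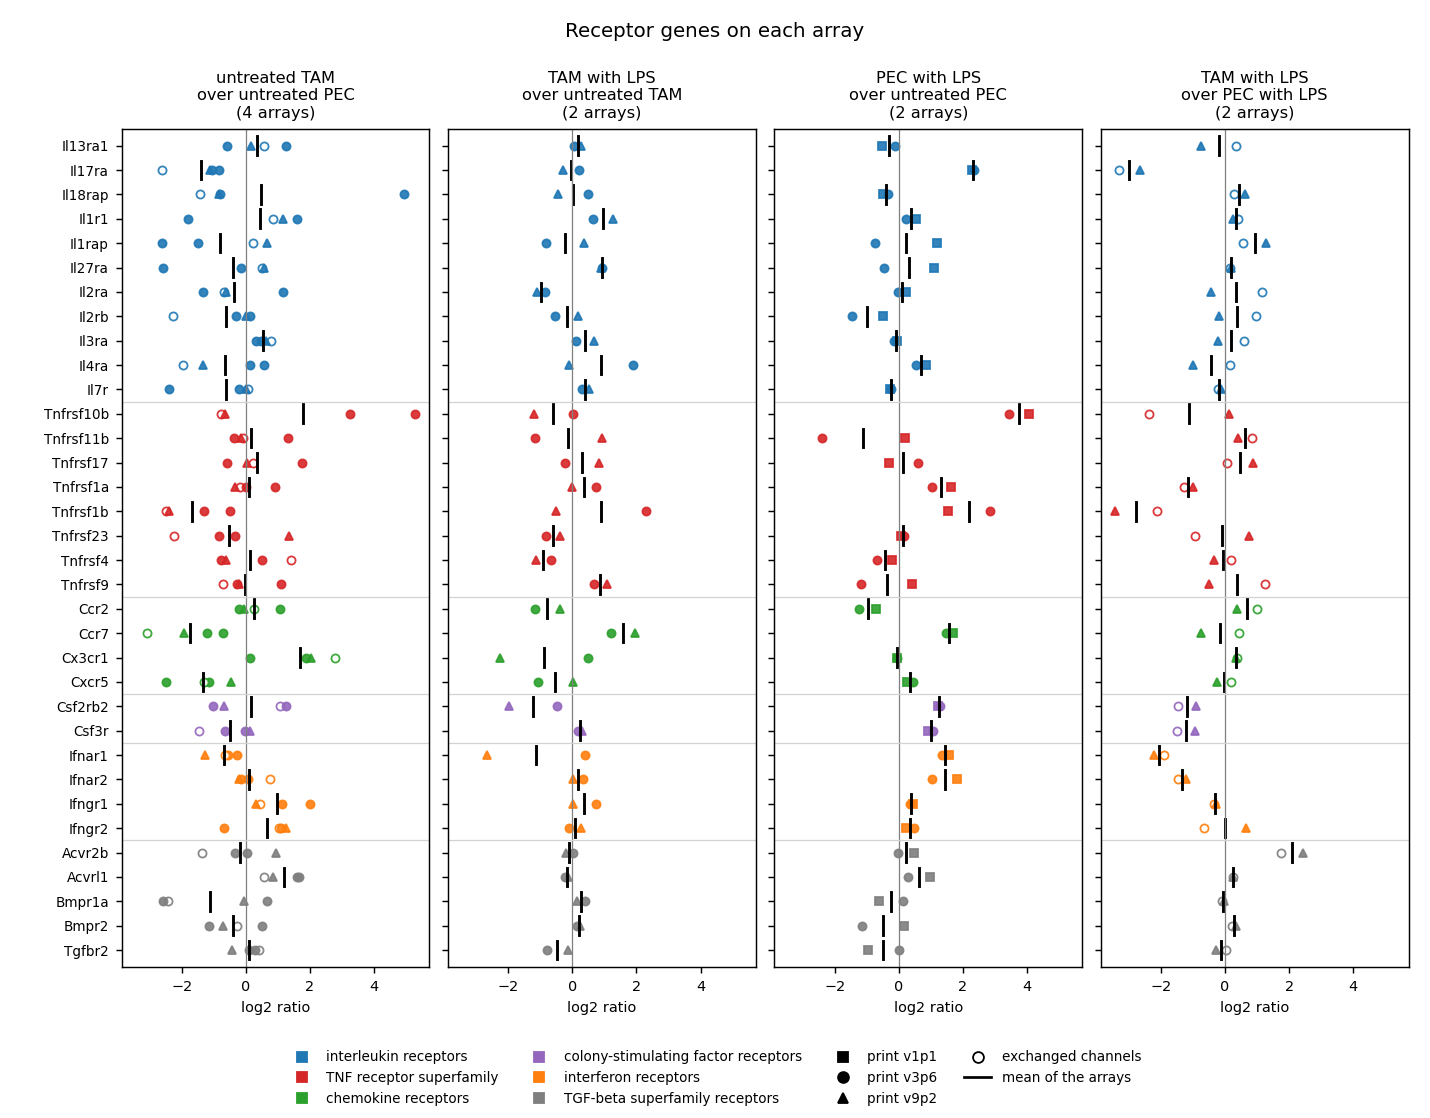
The 34 receptor genes (rows, grouped by family) on each array, as log2 ratios of the condition named first over the other. Points are arrays, shaped by array print and open where channels were exchanged, and black bars are means. Il17ra, Tnfrsf1b, Ifnar1 and Ifnar2 lie right of 0 on both arrays of PEC with LPS over untreated PEC and left of 0 on both arrays of TAM with LPS over PEC with LPS.

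**Figure D2:**
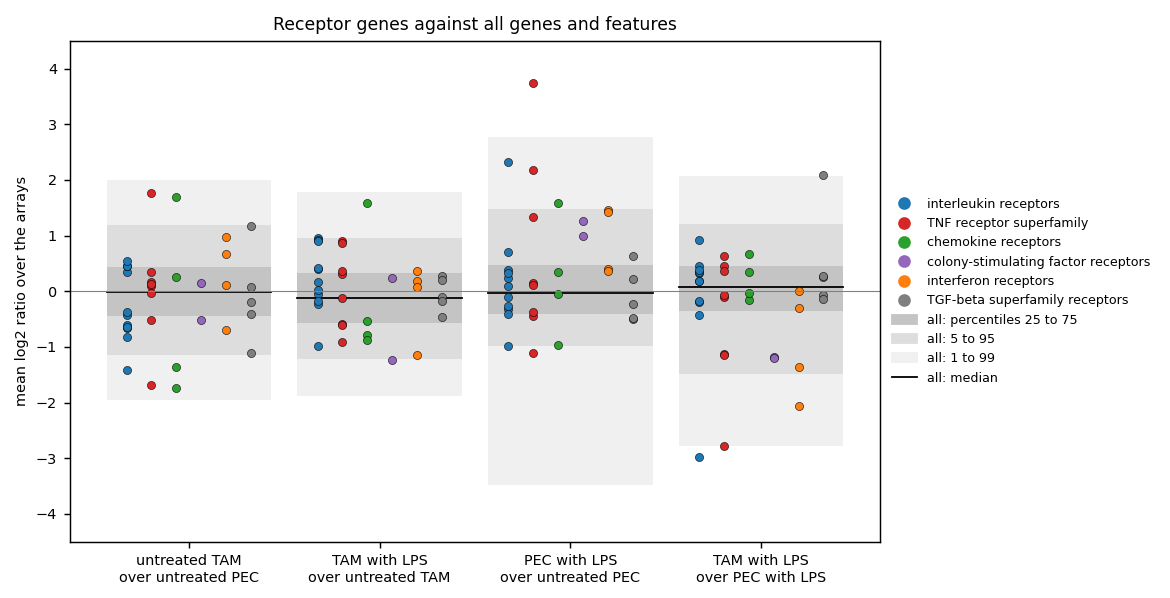
Mean log2 ratio of each receptor gene in the 4 comparisons, coloured by family, over grey bands that run from percentile 25 to 75, 5 to 95 and 1 to 99 of all 8905 genes and features. Tnfrsf10b lies above the band of percentiles 1 to 99 in PEC with LPS over untreated PEC, and in TAM with LPS over PEC with LPS, Il17ra and, narrowly, Tnfrsf1b lie below it and Acvr2b lies above it.

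Among the interleukin receptors, Il17ra, the signalling chain shared by the receptors of several IL-17 cytokines, had the lowest adjusted p of all 34 genes. With LPS it measured -3.33 on TAM1 and -2.65 on TAM7 for TAM over PEC, which is 7.93-fold lower in TAM (log2 ratio -2.99 ± 0.48 (SD, n = 2), adjusted p = 0.0557). Both arrays, of opposite channel order, put it far below 0. Untreated TAM over PEC gave -1.07 on TAM-b, -2.64 on TAM-2R, -0.83 on TAM-3 and -1.11 on TAM-8 (mean -1.41 ± 0.83 (SD, n = 4), adjusted p = 0.145). All 4 arrays were below 0, and TAM-2R lay apart from the other 3. The LPS response of Il17ra was -0.29 and 0.19 on the TAM arrays (mean -0.05, 95% interval -1.15 to 1.06) and 2.28 and 2.36 on the PEC arrays (mean 2.32 ± 0.05 (SD, n = 2), adjusted p = 0.251). The TAM arrays straddled 0 and the PEC arrays both lay above 2. The difference of the responses, TAM minus PEC, was -2.37 ± 0.70 (SE), with an adjusted p of 0.719.

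The count of TAM with LPS over PEC with LPS depended on the setting through Il17ra. It passed with arrays scaled to 1 spread (log2 ratio -3.56, adjusted p = 0.0106) and in a fit of all conditions as 1 loop with a dye term (-3.29, adjusted p = 0.00557). It also passed without TAM-2R (-2.99, adjusted p = 0.0286). TAM-2R is an untreated array outside this comparison, so leaving it out changed the error of the fit and not the mean. Without TAM1 the mean was -2.65, and without TAM7 it was -3.33. With TAM1 left in its deposited order, Il17ra had a mean of 0.34. Over all settings its adjusted p ran from 0.00557 to 1.

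The other interleukin receptors showed smaller or less even values. Il1r1, the signalling receptor of IL-1, measured 1.26 and 0.64 on TAM-trial and TAM-16 for LPS over untreated TAM, and 0.53 and 0.22 on PEC1 and PEC2 for LPS over untreated PEC. It was above 0 on all 4. Il27ra, the specific chain of the IL-27 receptor, gave 0.91 on TAM-trial and 0.93 on TAM-16 in TAM and 1.11 on PEC1 and -0.45 on PEC2 in PEC, even in TAM and split in PEC. Il1rap, the accessory chain that IL-1 receptors share, was 0.56 and 1.28 on TAM1 and TAM7 for TAM over PEC with LPS (mean 0.92 ± 0.51 (SD, n = 2), adjusted p = 0.911), but -1.51 on TAM-b, 0.21 on TAM-2R, -2.64 on TAM-3 and 0.64 on TAM-8 untreated. The untreated arrays fell on both sides of 0. Il4ra, the chain that IL-4 and IL-13 receptors share, ran from -1.97 to 0.57 over the untreated arrays, with 2 arrays on each side of 0. Its LPS response was -0.11 and 1.9 on the TAM arrays and 0.86 and 0.55 on the PEC arrays. TAM-16 lay far above the other 3 values. Il13ra1, its partner for IL-13, had a mean of 0.35 in untreated TAM over PEC and one of -0.20 with LPS, each with arrays on both sides of 0.

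Il3ra, the ligand-binding chain of the IL-3 receptor, was the most even of the interleukin receptors in untreated TAM over PEC, with 0.48 on TAM-b, 0.77 on TAM-2R, 0.31 on TAM-3 and 0.61 on TAM-8 (mean 0.54 ± 0.19 (SD, n = 4), adjusted p = 0.392). All 4 arrays lay above 0 within a narrow range. The receptor chains better known from lymphocytes gave no such pattern. Il2ra, the chain that gives the IL-2 receptor its high affinity, was below 0 on both TAM arrays with LPS over untreated (-1.1 and -0.85), and 0.23 and -0.04 on the PEC arrays. Il2rb, its signalling partner, was 0.18 and -0.53 on the TAM arrays with LPS over untreated and -0.50 and -1.48 on the PEC arrays. The TAM arrays were split and both PEC arrays were below 0. Il7r, the specific chain of the IL-7 receptor, had opposite LPS responses, 0.51 and 0.31 on the TAM arrays and -0.26 and -0.25 on the PEC arrays. Its PEC mean was above 0 with a dye term (0.01), with a dye term for each print (0.28) and in the loop fit (0.09). PEC1 was the only array of its print, so with a term for each print the PEC value rests on PEC2 alone. Il18rap, the accessory chain of the IL-18 receptor, measured -0.80 on TAM-b, -1.44 on TAM-2R, 4.93 on TAM-3 and -0.86 on TAM-8 in untreated TAM over PEC. The value of TAM-3 stands alone: the other 3 arrays were below 0. TAM-3 was also the array on which 10 measured neutrophil markers had their highest median, 2.15, against 0.31 to 0.71 on the other 3. On the same array the 12 measured T and NK cell markers had their lowest median, -0.64, against 0.08 to 0.66. The part of either kind of cell in the value of Il18rap was not tested.

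In the TNF receptor superfamily, both receptors of TNF were below 0 in TAM over PEC with LPS. Tnfrsf1b, which encodes TNFR2, measured -2.13 on TAM1 and -3.45 on TAM7 in TAM over PEC with LPS, 6.91-fold lower in TAM (log2 ratio -2.79 ± 0.93 (SD, n = 2), adjusted p = 0.261). Untreated TAM over PEC gave -1.33 on TAM-b, -2.51 on TAM-2R, -0.50 on TAM-3 and -2.4 on TAM-8 (mean -1.69 ± 0.96 (SD, n = 4), adjusted p = 0.221). It was below 0 on all 4 untreated arrays and on both arrays with LPS. Its LPS response was -0.50 and 2.31 on the TAM arrays, on both sides of 0, and 1.53 and 2.84 on the PEC arrays, both above 0 (mean 2.18 ± 0.92 (SD, n = 2), adjusted p = 0.455).

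Tnfrsf1a, which encodes the death domain receptor TNFR1, measured -1.29 on TAM1 and -1.01 on TAM7 in TAM over PEC with LPS (mean -1.15 ± 0.20 (SD, n = 2), adjusted p = 0.477). Untreated, it gave 0.92 on TAM-b, -0.20 on TAM-2R, 0.01 on TAM-3 and -0.34 on TAM-8, with a mean of 0.10. The arrays with LPS both lay below 0 and the untreated arrays were spread around it. Its LPS response was -0.01 and 0.73 on the TAM arrays and 1.63 and 1.04 on the PEC arrays (mean 1.33 ± 0.42 (SD, n = 2), adjusted p = 0.452). The PEC arrays lay above both TAM arrays, but the difference of the responses was -0.97 ± 0.63 (SE), with an adjusted p of 0.867.

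Tnfrsf10b, the receptor of the death ligand TRAIL in mouse, had the highest mean of all 34 genes in the LPS response of PEC, with 4.05 on PEC1 and 3.43 on PEC2 (13.4-fold, mean 3.74 ± 0.44 (SD, n = 2), adjusted p = 0.455). Its LPS response in TAM was -1.2 and 0.01, and the difference, TAM minus PEC, was -4.34 ± 1.84 (SE) (adjusted p = 0.719). With a dye term for each print, which leaves PEC2 as the only array behind the PEC value, the LPS response of Tnfrsf10b in PEC was 0.98. Untreated TAM over PEC gave 5.29 on TAM-b, -0.78 on TAM-2R, 3.25 on TAM-3 and -0.66 on TAM-8, 2 arrays far above 0 and 2 below. With LPS it was -2.37 and 0.11 on TAM1 and TAM7. The split of the untreated arrays makes its mean of 1.77 a poor summary, and without TAM-b it was 0.60.

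The other members of the TNF receptor superfamily were Tnfrsf4 and Tnfrsf9, costimulatory receptors known as OX40 and 4-1BB, Tnfrsf11b, the secreted decoy receptor osteoprotegerin, Tnfrsf17, the plasma cell receptor BCMA, and Tnfrsf23, a mouse decoy receptor of TRAIL. Tnfrsf9 was above 0 on both TAM arrays with LPS over untreated (1.08 and 0.67) and split on the PEC arrays (0.43 and -1.19). Tnfrsf4 was below 0 on both TAM arrays (-1.15 and -0.68) and both PEC arrays (-0.22 and -0.67) with LPS over untreated. Tnfrsf11b, 0.85 and 0.41, and Tnfrsf17, 0.05 and 0.86, were above 0 on TAM1 and TAM7. Tnfrsf23 was below 0 on both TAM arrays of the LPS response (-0.37 and -0.83) and close to 0 on the PEC arrays (0.08 and 0.16). None of these 5 genes had 1 sign on all 4 untreated arrays.

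Of the interferon receptors, Ifnar1 and Ifnar2, the 2 chains of the type I interferon receptor, were lower in TAM than in PEC on both arrays with LPS. Ifnar1 measured -1.9 on TAM1 and -2.21 on TAM7 (mean -2.06 ± 0.22 (SD, n = 2), adjusted p = 0.348). Ifnar2 measured -1.48 on TAM1 and -1.23 on TAM7 (mean -1.36 ± 0.17 (SD, n = 2), adjusted p = 0.35). Both chains were above 0 on both PEC arrays with LPS over untreated, at 1.58 and 1.33 for Ifnar1 and 1.82 and 1.04 for Ifnar2 (means 1.46 ± 0.17 (SD, n = 2) and 1.43 ± 0.55 (SD, n = 2), adjusted p = 0.579 and 0.426). In TAM, the LPS response was -2.68 on TAM-trial and 0.38 on TAM-16 for Ifnar1 and 0.03 and 0.34 for Ifnar2. The Ifnar1 values of TAM lay on opposite sides of 0 and those of Ifnar2 were close to it.

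In untreated TAM over PEC, Ifnar1 gave -0.57 on TAM-b, -0.66 on TAM-2R, -0.30 on TAM-3 and -1.28 on TAM-8 (mean -0.70 ± 0.41 (SD, n = 4), adjusted p = 0.48), below 0 on all 4 arrays. Ifnar2 gave -0.15 on TAM-b, 0.74 on TAM-2R, 0.07 on TAM-3 and -0.23 on TAM-8, with 2 arrays on each side of 0 (mean 0.11). With the effect of feature place removed, the means were -0.19 for Ifnar1 and -0.50 for Ifnar2, and no test compared the chains. The difference of the LPS responses, TAM minus PEC, was -2.6 ± 0.89 (SE) for Ifnar1 (adjusted p = 0.719) and -1.25 ± 0.59 (SE) for Ifnar2 (adjusted p = 0.742).

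Of the interferon gamma receptor chains, Ifngr1, which binds the ligand, measured 2.0 on TAM-b, 0.45 on TAM-2R, 1.13 on TAM-3 and 0.30 on TAM-8 in untreated TAM over PEC (1.96-fold, mean 0.97 ± 0.78 (SD, n = 4), adjusted p = 0.256). All 4 arrays were above 0, and the mean without TAM-b was 0.63. With LPS, TAM over PEC gave -0.34 and -0.28, below 0 on both arrays. Ifngr2, the accessory chain, gave -0.69 on TAM-b, 1.02 on TAM-2R, 1.1 on TAM-3 and 1.26 on TAM-8, with TAM-b alone below 0 (mean 0.67 ± 0.91 (SD, n = 4), adjusted p = 0.441). LPS in PEC put Ifngr1 at 0.43 and 0.37 and Ifngr2 at 0.24 and 0.48, so all 4 interferon receptor genes were above 0 on both PEC arrays. In mouse, Ifnar2, Ifnar1 and Ifngr2 lie close together on chromosome 16, with 1 protein-coding gene between Ifnar2 and Ifnar1 and 0 between Ifnar1 and Ifngr2 in the RefSeq order.

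Both colony-stimulating factor receptors were above 0 on both PEC arrays of the LPS response and below 0 on both arrays of TAM over PEC with LPS. Csf3r, the receptor of the granulocyte factor G-CSF, measured -1.49 on TAM1 and -0.93 on TAM7 in TAM over PEC with LPS (mean -1.21 ± 0.39 (SD, n = 2), adjusted p = 0.466) and 0.93 and 1.07 on the PEC arrays with LPS over untreated (mean 1.0 ± 0.10 (SD, n = 2), adjusted p = 0.623). Its LPS response in TAM was 0.30 and 0.17, smaller on both arrays. Csf3r is abundant in neutrophils. Of the 10 measured neutrophil markers, 7 had a mean above 0 and 3 one below in TAM over PEC with LPS (array medians 0.10 on TAM1 and 0.86 on TAM7). In the LPS response of PEC, 6 had a mean above 0 and 4 one below (array medians 0.28 on PEC1 and 0.39 on PEC2). The part of such cells in the values of Csf3r was not tested. Csf2rb2, the beta chain that in mouse serves IL-3 alone, measured -1.47 on TAM1 and -0.91 on TAM7 in TAM over PEC with LPS (mean -1.19 ± 0.40 (SD, n = 2), adjusted p = 0.69). Its LPS response was -1.99 on TAM-trial and -0.48 on TAM-16, below 0 on both TAM arrays, and 1.23 on PEC1 and 1.29 on PEC2, above 0 on both PEC arrays (difference TAM minus PEC -2.5 ± 0.89 (SE), adjusted p = 0.719). Untreated TAM over PEC gave -1.03 on TAM-b, 1.06 on TAM-2R, 1.25 on TAM-3 and -0.69 on TAM-8, 2 arrays on each side of 0. Csf2rb2 has a close paralogue, Csf2rb, and a cDNA spot may not separate them.

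**Figure D3:**
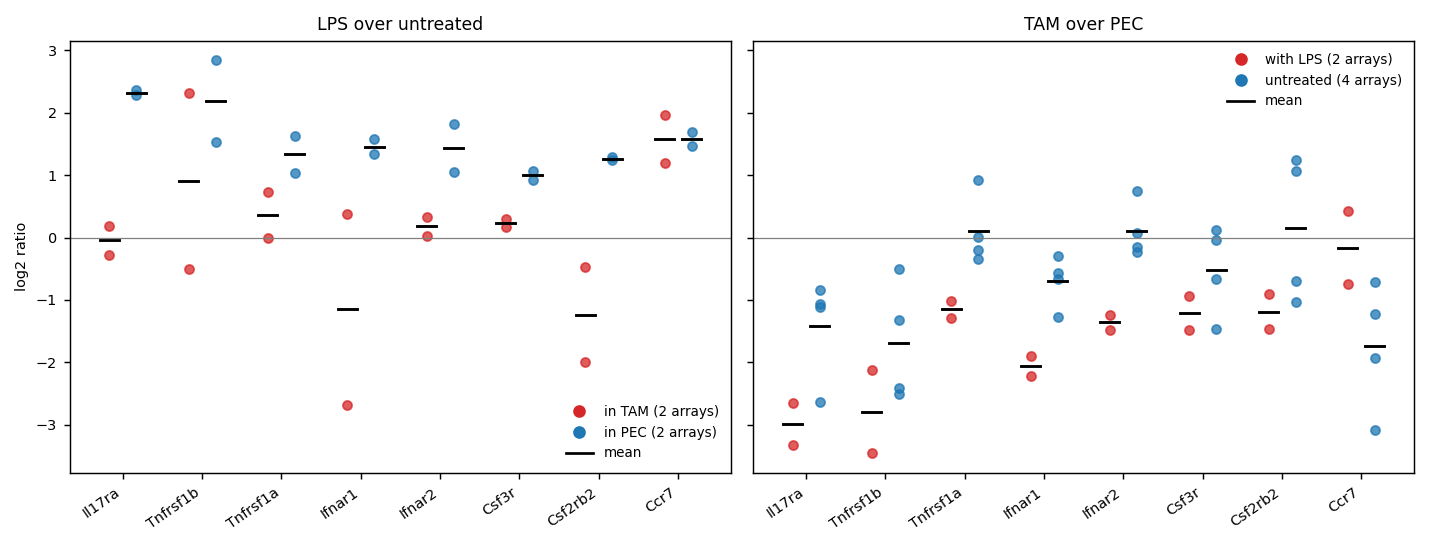
Log2 ratio of 8 receptor genes on each array (points) with the mean (bars). Left, LPS over untreated in TAM and in PEC; right, TAM over PEC with LPS and untreated. From Il17ra to Csf2rb2 the PEC points of the LPS response lie above 0 and the points of TAM over PEC with LPS below it, while Ccr7 is above 0 in both LPS responses.

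Il17ra, Tnfrsf1b, Tnfrsf1a, Ifnar1, Ifnar2, Ifngr1, Csf3r and Csf2rb2, 8 of the 34 receptor genes (23.5%), were thus above 0 on PEC1 and PEC2 and below 0 on TAM1 and TAM7, where 15.7% of all genes and features were. These comparisons share a condition, PEC with LPS, so their values are given side by side and nothing is read from the count. Ifngr1 was the closest of the 8 to 0. With a dye term for each print it was -0.16 in the LPS response of PEC, a value from PEC2 alone. In TAM with LPS over PEC with LPS it was 0.20 in that fit. Most, but not all, markers of macrophages lay on the same sides of 0. Of 13 measured macrophage markers that are no receptor genes, 12 had a mean above 0 in the LPS response of PEC (array medians 0.95 and 1.22). In TAM with LPS over PEC with LPS, 9 of these markers had a mean below 0 (array medians -1.29 and -0.53), among them Cd68 at -3.5 and Lyz2 at -2.71. The other 4 were above 0 there: Aif1 at 1.42, Mrc1 at 0.97, Laptm5 at 0.89 and Cd163 at 0.17. In untreated TAM over PEC their array medians ran from -0.81 to 0.17, and in the LPS response of TAM they were -1.67 on TAM-trial and 0.19 on TAM-16. TAM-trial was also the array on which Ifnar1 and Csf2rb2 were lowest in TAM. The part of these markers in the receptor values was not tested.

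Several of these values depended on how the dyes were treated. With a dye term for each print, the LPS response of PEC, then from PEC2 alone, was 0.65 for Tnfrsf1a and 0.92 for Ifnar1. With the loop fit it was 1.45 for Il17ra, 0.44 for Csf3r and 0.89 for Ccr7. Tnfrsf1b, Ifnar2 and Csf2rb2 moved by less than 1.5 times under every setting without a left-out array. With a dye term for each print, TAM with LPS over PEC with LPS was -1.23 for Ifnar1 and -1.68 for Tnfrsf1b. With TAM1 left in its deposited order, the same comparison was 0.28 for Csf2rb2, -0.16 for Ifnar1 and -0.66 for Tnfrsf1b. With TAM-2R in its deposited order, untreated TAM over PEC was -0.09 for Il17ra, -0.20 for Ccr7, -0.43 for Tnfrsf1b and 0.31 for Cx3cr1.

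Promoters of 3 of these 8 genes are shown because they hold 1 short motif in common, TTCNNNGAA, the core letters bound by STAT factors. The windows are from RefSeq (GRCm38.p6), run from 250 bases before to 50 after the start site and are written on the gene's strand, with the motif in capitals. Tnfrsf1b is at chr4:145246821-145247120 (minus strand), Tnfrsf1a at chr6:125349473-125349772 (plus strand) and Ifnar1 at chr16:91484965-91485264 (plus strand).
Tnfrsf1b: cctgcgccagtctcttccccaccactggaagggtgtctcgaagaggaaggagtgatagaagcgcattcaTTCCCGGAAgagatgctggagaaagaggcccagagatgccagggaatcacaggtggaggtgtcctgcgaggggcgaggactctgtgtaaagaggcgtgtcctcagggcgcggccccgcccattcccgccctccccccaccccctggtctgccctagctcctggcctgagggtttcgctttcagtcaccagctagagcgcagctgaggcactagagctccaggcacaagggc
Tnfrsf1a: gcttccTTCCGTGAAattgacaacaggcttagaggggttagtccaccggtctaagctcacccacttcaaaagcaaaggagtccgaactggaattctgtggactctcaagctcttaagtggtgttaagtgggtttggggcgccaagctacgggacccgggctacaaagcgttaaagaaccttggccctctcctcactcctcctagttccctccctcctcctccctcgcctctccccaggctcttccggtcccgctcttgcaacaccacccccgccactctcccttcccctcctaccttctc
Ifnar1: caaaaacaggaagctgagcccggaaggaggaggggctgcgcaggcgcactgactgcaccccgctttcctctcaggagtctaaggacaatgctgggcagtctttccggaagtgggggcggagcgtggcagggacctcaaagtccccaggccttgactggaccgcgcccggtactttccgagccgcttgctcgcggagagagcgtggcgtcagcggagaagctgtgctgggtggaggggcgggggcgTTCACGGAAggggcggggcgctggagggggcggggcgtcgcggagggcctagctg

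The site reads TTCCCGGAA at -181 to -173 in Tnfrsf1b, TTCCGTGAA at -244 to -236 in Tnfrsf1a and TTCACGGAA at -5 to 4 in Ifnar1, counted from the start site. Ifnar2 (TTCCTGGAA) and Csf2rb2 (TTCTGAGAA) also hold one, as do Il7r and Tnfrsf9, which did not share the pattern above. Of the 34 receptor genes 26 had a window, and 7 of these 26 held the motif, which reads the same on both strands; 8.3% of all 32851 windows held it. Of 3 other motifs searched on both strands, an NF-kB consensus was found in 5 receptor genes (4.51% of all windows), GAGGAA, a core of PU.1 sites, in 8 (28.3%), and TGANTCA, an AP-1 core, in 1 (7.81%). The search was chosen after the values were known, and a match is a string of letters, not a bound site.

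Among the chemokine receptors, Ccr7, which guides cells towards lymphoid tissue, had the lowest mean of all 34 genes in untreated TAM over PEC. It measured -1.23 on TAM-b, -3.09 on TAM-2R, -0.71 on TAM-3 and -1.93 on TAM-8, 3.34-fold lower in TAM (log2 ratio -1.74 ± 1.03 (SD, n = 4), adjusted p = 0.123). All 4 arrays were below 0. The LPS response of Ccr7 was 1.97 on TAM-trial and 1.2 on TAM-16 in TAM (mean 1.58 ± 0.54 (SD, n = 2), adjusted p = 0.827) and 1.68 on PEC1 and 1.47 on PEC2 in PEC (mean 1.58 ± 0.15 (SD, n = 2), adjusted p = 0.479). All 4 arrays were above 0 and the responses overlapped, with a difference, TAM minus PEC, of 0.01 ± 0.82 (SE) and a 95% interval of -1.82 to 1.83. With LPS, TAM over PEC gave 0.42 and -0.74, on opposite sides of 0. In the loop fit the LPS response of Ccr7 was 1.85 in TAM and 0.89 in PEC.

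Cx3cr1, the fractalkine receptor of monocytes and macrophages, measured 0.11 on TAM-b, 2.79 on TAM-2R, 1.87 on TAM-3 and 2.02 on TAM-8 in untreated TAM over PEC (3.25-fold, mean 1.7 ± 1.13 (SD, n = 4), adjusted p = 0.214). TAM-b was close to 0 and the other 3 arrays were near or above 2. LPS gave -2.25 on TAM-trial and 0.48 on TAM-16 in TAM and -0.05 and -0.04 in PEC. Ccr2, which recruits monocytes to tissue, was below 0 on all 4 arrays of LPS over untreated, at -0.39 and -1.17 in TAM and -0.72 and -1.23 in PEC. TAM over PEC with LPS put Ccr2 at 0.99 and 0.36, and the untreated arrays were split. Cxcr5, the CXCL13 receptor best known from B cells, measured -1.16 on TAM-b, -1.31 on TAM-2R, -2.5 on TAM-3 and -0.46 on TAM-8 (mean -1.36 ± 0.85 (SD, n = 4), adjusted p = 0.171), below 0 on all 4 untreated arrays. Its values with LPS, 0.20 and -0.24, were close to 0. The 7 measured B and plasma cell markers had array medians from -1.06 on TAM-3 to 0.38 on TAM-2R in that untreated comparison, the arrays with the lowest and second lowest value of Cxcr5, and their part in its values was not tested.

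Of the TGF-beta superfamily receptors, Acvrl1, a type I receptor (ALK1) best known from endothelium, measured 1.61 on TAM-b, 0.56 on TAM-2R, 1.66 on TAM-3 and 0.85 on TAM-8 in untreated TAM over PEC (2.25-fold, mean 1.17 ± 0.55 (SD, n = 4), adjusted p = 0.157). All 4 arrays were above 0, and with the effect of feature place removed the mean was 0.54. The 10 measured endothelial markers had array medians from -0.53 to 0.34 there. Acvr2b, a type II receptor of activins, was the highest receptor gene in TAM over PEC with LPS, at 1.74 on TAM1 and 2.44 on TAM7 (4.26-fold, mean 2.09 ± 0.49 (SD, n = 2), adjusted p = 0.242), while the untreated arrays gave 0.02 on TAM-b, -1.39 on TAM-2R, -0.35 on TAM-3 and 0.94 on TAM-8 and fell on both sides of 0. Tgfbr2, the type II receptor of TGF-beta, stayed within 1 of 0 on all 10 arrays, with a mean of 0.08 in untreated TAM over PEC (95% interval -0.59 to 0.76). Bmpr1a, a type I receptor of bone morphogenetic proteins, gave 0.65 on TAM-b, -2.42 on TAM-2R, -2.6 on TAM-3 and -0.07 on TAM-8 on the untreated arrays, 2 far below 0 and 2 near or above it. Bmpr2, its type II partner, ranged from -1.17 to 0.51 there and lay at 0.23 and 0.33 with LPS.

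Setting the direct arrays of TAM with LPS over PEC with LPS beside the value that the other 8 arrays imply gave a check on the loop of comparisons. Il17ra was -2.99 directly and -3.78 indirectly, Tnfrsf1b -2.79 and -2.96, Csf3r -1.21 and -1.28, and Ifnar2 -1.36 and -1.14. Ifnar1 was -2.06 and -3.30, Tnfrsf1a -1.15 and -0.88, and Csf2rb2 -1.19 and -2.36. The indirect value of Ifnar1 includes LPS responses of TAM on opposite sides of 0, -2.68 on TAM-trial and 0.38 on TAM-16. For each of these 7 genes the 95% interval of the difference held 0. The narrowest of these intervals was that of Ifnar2 (-1.95 to 1.52) and the widest that of Tnfrsf1b (-2.93 to 3.28). With intervals so wide, holding 0 cannot show that the direct and indirect values agree. The direct and indirect means differed in sign for 8 of the 34 receptor genes, among them Ifngr1 (-0.31 and 0.94), Il2ra (0.34 and -1.45) and Il1rap (0.92 and -1.28). Sign differences were not counted over all genes and features, so nothing is read from this count. The widest gaps, direct minus indirect, were those of Acvr2b (2.62 ± 1.0 (SE)), Cxcr5 (2.22 ± 0.97 (SE)) and Il1rap (2.2 ± 1.48 (SE)), each with an adjusted p of 1. No gene or feature passed this test (0% of all), and the 95% intervals of 32 of the 34 receptor genes held 0, those of Acvr2b and Cxcr5 being the exceptions. Acvr2b was above 0 on TAM1 and TAM7 and at -0.53 by the other arrays. Ccr7 was -0.16 directly and -1.73 indirectly, with a 95% interval of the difference from -0.85 to 3.99.

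**Figure D4:**
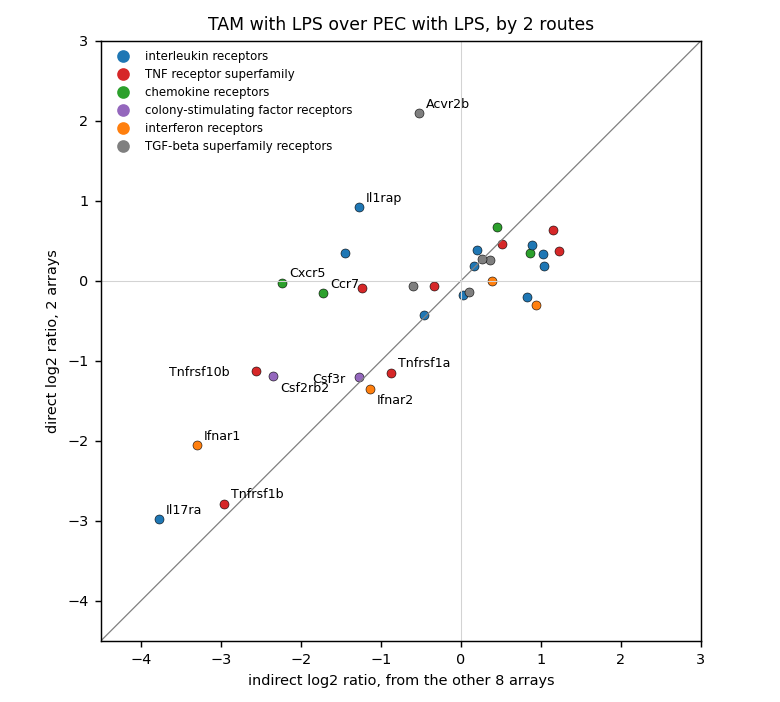
Log2 ratio of TAM with LPS over PEC with LPS for the 34 receptor genes, measured directly on TAM1 and TAM7 (vertical) and summed from the other 8 arrays (horizontal), with the line of equality. Il17ra, Tnfrsf1b and Ifnar1 lie far below 0 on both axes; Acvr2b lies at 2.09 directly and -0.53 indirectly.

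The direct test of whether LPS acted differently in TAM and PEC called no receptor gene, nor any other gene or feature (0% of all). At an unadjusted p under 0.05 it held 4 receptor genes, all lower in TAM: Il17ra, Ifnar1, Csf2rb2 and Tnfrsf10b, where 6.87% of all genes and features did. The highest values of the difference, TAM minus PEC, were those of Tnfrsf9 (1.25 ± 0.85 (SE)) and Tnfrsf11b (0.98 ± 1.0 (SE)), both with a 95% interval that held 0.

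Genes that act before and after these receptors were read from lists chosen with earlier results of these data known. Of 38 measured signal transducers, 0 passed in any of the 4 comparisons. At an unadjusted p under 0.05 there were 3 in untreated TAM over PEC (14.3% of all genes and features) and 2 in the LPS response of TAM (5.58%). The LPS response of PEC had 8 (8.14% of all), and TAM with LPS over PEC with LPS had 4 (8.99%). Socs3, a feedback inhibitor of cytokine receptors, had a mean LPS response of 1.62 in TAM and 3.71 in PEC, and was -2.54 in TAM over PEC with LPS. Myd88, the adaptor of IL-1 and Toll-like receptors, had -0.30 in TAM and 2.0 in PEC, and -2.09 in TAM over PEC with LPS. Its TAM arrays lay on opposite sides of 0, at -1.6 and 1.0. Stat3, a factor downstream of many of these receptors, had 1.75 in TAM and 1.43 in PEC, and -1.26 in TAM over PEC with LPS. These 3 were chosen after their values were seen.

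Of 48 measured ligands, 1 passed, and in 1 comparison: Ccl6, a chemokine, fell by 3.25 on the log2 scale in untreated TAM over PEC (adjusted p = 0.00997). At an unadjusted p under 0.05 there were 9 ligands in untreated TAM over PEC (14.3% of all genes and features) and 5 in the LPS response of TAM (5.58%). The LPS response of PEC had 12 (8.14% of all), and TAM with LPS over PEC with LPS had 13 (8.99%). Tnf, the ligand of both TNF receptors, was -1.15 in untreated TAM over PEC and -2.97 with LPS, with LPS responses of 1.84 in TAM and 3.58 in PEC; none of these passed.

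Markers of other cell types were read in the same way, leaving out the receptor genes. In untreated TAM over PEC, 16 of 20 measured fibroblast and stroma markers had a mean above 0 (array medians 0.09 to 1.32) and 1, Igfbp4, passed. A mean above 0 was also found for 8 of 10 neutrophil markers (0.31 to 2.15), 5 of 12 T and NK cell markers (-0.64 to 0.66), 3 of 7 B and plasma cell markers, 6 of 10 endothelial markers, 0 of 5 mast cell and eosinophil markers (-0.70 to 0.39) and 4 of 10 epithelial and mesothelial markers (-0.32 to 0.27), and none of these passed. The part of such cells in the values of the receptor genes was not tested.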

How the data were processed

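The authors deposited 1 log2 ratio per feature and array; its base, dyes, image analysis and normalization were not given in the sources used here. The base was read as 2 from the size of the values (largest absolute value 11.687). Channel intensities were not used here, so no dim spot was removed. Of 9596 features, 7486 had 1 symbol, 483 several and 1627 none; features of 1 gene were averaged and unnamed ones kept singly.

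TAM-2R and TAM1 were turned. Then limma 3.58.1 in R 4.3.3 (lmFit, eBayes, two-sided) was run on all 10 arrays with 1 mean per comparison (6 residual and 3.841 prior degrees of freedom), after it had been tested on simulated data. P-values were adjusted over 8905 genes and features. SDs are over arrays and SEs from the fit. By rule, values are given for a panel of macrophage receptors and for the 5 highest and 5 lowest receptor genes of each comparison with 1 sign on every array; others were added after their values were seen. The receptor genes, the lists (signal transducers, ligands, an LPS response list, cell type markers) and the tests were chosen with earlier results of these data known. Alternatives changed centring, scaling, place, channel order, dye terms, prints, the loop fit, feature averaging and each array in turn.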

Additional observations from a re-analysis of the deposited data

Results flagged for a closer look

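Among the 4 arrays of untreated TAM over PEC, 4 of the 34 receptor genes (11.8%) had 1 array far from the others relative to the whole range, as had 6.9% of all genes and features; chance gives it in about 1 of 20. Ifngr2 was -0.69 on TAM-b, against 1.02 to 1.26 on the other 3 arrays. Il17ra was -2.64 on TAM-2R, against -1.11 to -0.83. Il18rap was 4.93 on TAM-3, against -1.44 to -0.80. Il7r was -2.40 on TAM-3, against -0.22 to 0.07.

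For 6 receptor genes both TAM arrays of the LPS response lay on one side of 0 and both PEC arrays on the other, as they did for 14.3% of all genes and features. The differences, TAM minus PEC, were -2.5 for Csf2rb2 (adjusted p = 0.719), -0.82 for Acvrl1 (0.905), -0.72 for Tnfrsf23 (0.998), 0.48 for Il13ra1 (0.998), 0.49 for Il3ra (0.998) and 0.67 for Il7r (0.998). None passed the test of the difference. The opposite signs depended on how the dyes were treated. With a dye term the means of TAM and PEC kept them for 3 of the 6, and in the loop fit for 2. With a dye term for each print, where the PEC value rests on PEC2 alone, they were kept for 1, Csf2rb2. Only Csf2rb2 kept them in all 3 of these fits.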

How the results depend on the processing

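The count of receptor genes called stayed at 0 under 12 other settings and without each of the 10 arrays in turn in untreated TAM over PEC and in both LPS responses; in TAM with LPS over PEC with LPS it ranged from 0 to 1 without each array, and was 1 with arrays centred and scaled (Il17ra -3.56) and in the loop fit with a dye term (Il17ra -3.29), where 81 and 131 of all genes and features passed. With TAM-2R and TAM1 not turned, the means of TAM with LPS over PEC with LPS changed sign for 20 of the 34, among them 4 at an unadjusted p under 0.05 as reported, Csf3r (0.28), Ifnar2 (0.12), Il17ra (0.34) and Tnfrsf1a (0.14), and those of untreated TAM over PEC for 11; the turn itself makes this change. Over all settings the median of the receptor genes ran from -0.18 to 0.12 in untreated TAM over PEC, from -0.26 to 0.20 in the LPS response of TAM, from 0.10 to 0.34 in that of PEC and from -0.21 to 0.18 in TAM with LPS over PEC with LPS. No paired analysis was possible because replicate numbers only name arrays and each array already pairs 2 conditions. Print as a random block had a consensus correlation of -0.0289. This is 1 value for all prints and genes, and it does not describe the arrays of print v9p2, which correlated at 0.433 to 0.568 across comparisons. With 2 arrays in 3 of the comparisons, only large differences could pass.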
